A study of Mus musculus with 4 samples.

Results

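The enzymes that turn arachidonic acid into leukotrienes and prostaglandins were followed as 8 genes, Alox5, Alox5ap, Lta4h, Ltc4s, Ptgs1, Ptgs2, Ptges and Hpgds, chosen by name for their place in the pathway. All 8 were listed in each of 4 single-cell libraries, out of 11195 genes that all the libraries list and 13036 listed in any. The cells were sorted as CD45+CD11b+Ly6G- mononuclear cells from the synovial tissue of hind paws, a gate that leaves out neutrophils. They came from Cx3cr1creER:tdTomato mice at steady state (day 0) and at day 1, day 2 or day 5 after an injection of K/BxN serum, whose autoantibodies cause arthritis in the recipients. Mice of all 4 groups, the steady state included, carried the same alleles, in which the Cx3cr1 promoter drives a tamoxifen-dependent Cre that switches on tdTomato. Per the labels, tamoxifen at 4 mg/ml was given 2 times within 48 h, and serum followed 4 weeks later in the mice of days 1, 2 and 5. Each day is 1 library, and its number of mice, their age and their sex are not stated in the labels. Day and library therefore cannot be told apart, no test between days was possible, and every interval below is a 95% interval that covers counting error only.

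Arachidonic acid is released from membranes and enters one of 2 branches. In the leukotriene branch, Alox5 encodes 5-lipoxygenase and Alox5ap the membrane protein FLAP that presents arachidonic acid to it. The product, leukotriene A4, is turned into the neutrophil attractant leukotriene B4 by the hydrolase encoded by Lta4h, or into leukotriene C4, parent of the cysteinyl leukotrienes, by the synthase encoded by Ltc4s. In the prostanoid branch, the constitutive cyclooxygenase COX-1 (Ptgs1) and the inducible COX-2 (Ptgs2) make prostaglandin H2, from which the microsomal synthase encoded by Ptges makes prostaglandin E2 and the hematopoietic synthase encoded by Hpgds makes prostaglandin D2. Leukotriene B4 and its receptor Ltb4r1 are known to drive serum-transfer arthritis in mice.

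The promoter windows of Alox5, Ltc4s, Hpgds and Ptgs2 are shown because the first 3 genes shared a pattern across the marker groups below and Ptgs2 had the opposite one. RefSeq (GRCm38.p6) gave a window of 250 bases before to 50 after the gene start for 7 of the 8 genes. Capitals mark matches to GGAAGT (the PU.1-type ETS core), TTGCGCAA (a C/EBP palindrome), CACGTG (an E box), CGTCA (the core of the cAMP response element) or TATAAA (a core promoter box), each searched on both strands. In Ptgs2, CGTCA at base 13 after the start overlaps CACGTG at base 16.
Alox5, chr6:116461129-116461428, minus strand: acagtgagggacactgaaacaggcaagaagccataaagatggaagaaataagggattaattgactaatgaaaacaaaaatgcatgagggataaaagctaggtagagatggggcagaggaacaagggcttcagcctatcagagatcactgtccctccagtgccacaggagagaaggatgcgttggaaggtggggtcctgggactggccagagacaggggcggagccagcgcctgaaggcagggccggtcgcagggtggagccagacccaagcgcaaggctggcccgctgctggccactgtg
Ltc4s, chr11:50238483-50238782, minus strand: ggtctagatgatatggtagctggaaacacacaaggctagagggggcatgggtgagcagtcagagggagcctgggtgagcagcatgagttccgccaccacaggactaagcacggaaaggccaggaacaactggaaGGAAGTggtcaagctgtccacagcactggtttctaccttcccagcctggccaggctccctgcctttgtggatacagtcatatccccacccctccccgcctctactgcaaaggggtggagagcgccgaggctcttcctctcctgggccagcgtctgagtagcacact
Hpgds, chr6:65144681-65144980, minus strand: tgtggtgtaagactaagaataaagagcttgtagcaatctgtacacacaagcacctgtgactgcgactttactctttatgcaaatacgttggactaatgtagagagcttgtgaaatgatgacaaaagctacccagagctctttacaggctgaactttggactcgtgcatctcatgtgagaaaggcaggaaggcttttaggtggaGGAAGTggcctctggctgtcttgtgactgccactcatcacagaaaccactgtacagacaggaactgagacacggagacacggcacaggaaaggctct
Ptgs2, chr1:150099781-150100080, plus strand: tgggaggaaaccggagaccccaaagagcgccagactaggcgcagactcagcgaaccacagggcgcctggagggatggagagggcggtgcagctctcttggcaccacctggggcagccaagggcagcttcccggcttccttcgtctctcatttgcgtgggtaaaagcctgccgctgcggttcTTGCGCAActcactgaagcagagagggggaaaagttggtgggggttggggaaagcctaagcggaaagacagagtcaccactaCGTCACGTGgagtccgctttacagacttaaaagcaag

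GGAAGT was in 3 of the 7 windows, those of Hpgds, Ltc4s and Ptgs1, and in 23.8% of 32851 RefSeq promoters of the same length. The other motifs were found in the Ptgs2 window alone among the 7, apart from TATAAA, which was in none, and were in 0.183% (TTGCGCAA), 7.15% (CACGTG), 20.8% (CGTCA) and 13.6% (TATAAA) of all promoters. A match describes the letters of the window and is no evidence of binding. In the mm10 annotation (GENCODE) the genes lie apart, with 2 pairs on a shared chromosome: on chromosome 6, Alox5 at 116410077 to 116461178 and Hpgds at 65117293 to 65144908, and on chromosome 2, Ptgs1 at 36230426 to 36252272 and Ptges at 30889471 to 30929863. Ltc4s, at 50236461 to 50238616 of chromosome 11, is overlapped by the antisense gene Gm26542 over 1664 bases and Alox5ap, at 149264767 to 149288153 of chromosome 5, by the antisense gene Gm19719 over 5117 bases. Ptgs1 is overlapped by Gm43621, Hpgds by the pseudogene Gm17147 and Ptges by the pseudogene Gm13400. Gm13400 lies on the same strand as Ptges, and the neighbours of the other genes lie on the opposite strand. The labels do not say whether counting used strand, so the values of these 5 genes may include reads of their neighbours. Lta4h, at 93453411 to 93484875 of chromosome 10, and Ptgs2, at 150100031 to 150108227 of chromosome 1, overlap no other annotated gene.

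After barcodes with fewer than 500 genes or at least 10% mitochondrial UMIs (unique molecular identifiers, which count RNA molecules) were left out, 3715, 4642, 2722 and 3235 barcodes remained at days 0, 1, 2 and 5. They held 4347517, 18373038, 12159063 and 14901661 UMIs. The day 0 library stood apart in depth, with a median of 1057 UMIs per retained barcode against 3607.5 to 4183.5 in the others, and lost 3827 of its 7542 barcodes to the filter against 30 to 34 in the others. Between 10 and 22 retained barcodes were shared by any pair of libraries. The cell type in the labels was matched by its markers: all 8 monocyte and macrophage markers were listed, led by Lyz2, with a summed level of 24192 to 31412 CPM per library (UMIs of a gene or list per 1000000 UMIs of the group). Levels are compared between groups of cells for each gene, and not between genes, since 3' counts were not set on a scale per length.

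Of the leukotriene genes, Alox5 and Ltc4s were lower at day 5 than on each of the other days, and Alox5ap and Lta4h kept levels within 1.16-fold of day 0 on all 3 later days. On days 0, 1, 2 and 5, Alox5 stood at 175 CPM (163 to 188), 197 (191 to 203), 187 (179.7 to 195) and 89.1 (84.4 to 94.0). Ltc4s stood at 560.1 CPM (538 to 583), 714 (702 to 726), 708 (693 to 723) and 379.8 (369.9 to 389.8) on those days. For both genes the day 5 interval lay below and apart from the other 3, and the day 1 interval overlapped that of day 2. Alox5ap stood at 1029 CPM (999 to 1059.7), 1166 (1150.2 to 1181), 1139 (1120.2 to 1158) and 1104 (1087 to 1121), with the lowest value at day 0. Lta4h stood at 33.1 CPM (27.9 to 39.0), 34.7 (32.1 to 37.5), 34.5 (31.2 to 37.9) and 38.4 (35.3 to 41.7), and all 4 intervals overlapped.

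Of the prostanoid genes, Ptgs2 was higher at day 5 and Hpgds and Ptgs1 had their higher levels at days 1 and 2. In the same order of days, Ptgs2 stood at 2.76 CPM (1.43 to 4.82), 1.25 (0.794 to 1.88), 1.97 (1.26 to 2.94) and 35.4 (32.5 to 38.6), from 12, 23, 24 and 528 UMIs. The day 5 level was 12.8-fold that of day 0 (7.29 to 25.0) and 18.0-fold that of day 2 (11.9 to 28.3). Hpgds stood at 84.9 CPM (76.4 to 94.0), 137 (132 to 143), 156 (149 to 163) and 82.6 (78.1 to 87.4), so that days 0 and 5 overlapped and days 1 and 2 lay above them. Ptgs1 stood at 5.06 CPM (3.17 to 7.66), 11.3 (9.78 to 12.9), 12.2 (10.3 to 14.3) and 6.04 (4.86 to 7.42), in the same order. Ptges was near the limit of the data, with 5, 10, 9 and 17 UMIs and levels of 1.15, 0.544, 0.740 and 1.14 CPM whose intervals overlapped.

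**Figure D1:**
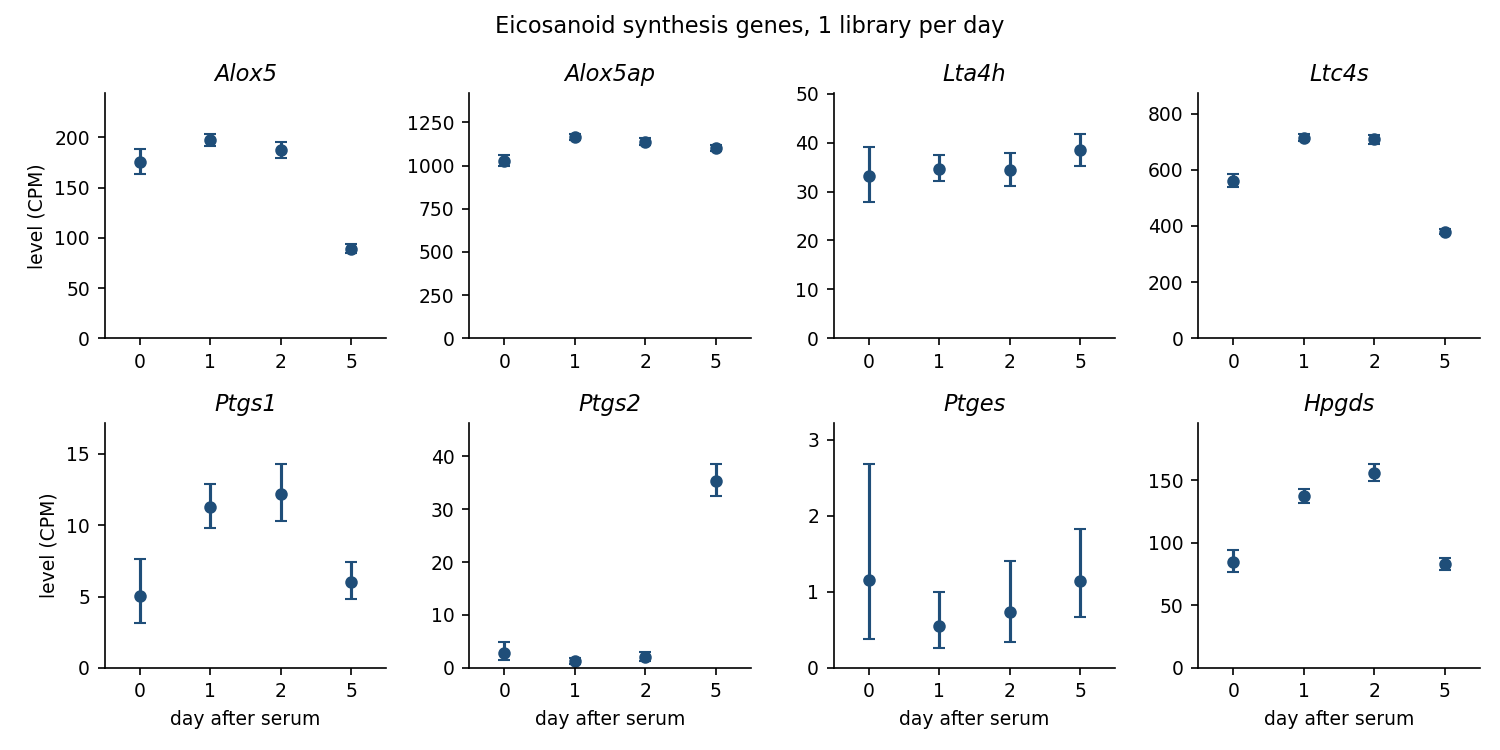
Level in CPM (vertical axis, from 0, one scale per gene) of the 8 genes on each day after serum (horizontal axis), 1 library per day, with exact Poisson 95% intervals of the counts as bars. Alox5 and Ltc4s are lowest at day 5, Ptgs2 is at 35.4 CPM at day 5 against 1.25 to 2.76 before, and Hpgds and Ptgs1 are highest at days 1 and 2.

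A gene counted as called when it was at least 2-fold apart and had at least 10 CPM in 1 of the groups. At day 1 against day 0, 1 of the 6 genes that met the CPM minimum was called, Ptgs1 (2.23-fold higher, 1.43 to 3.63), against 4.98% of 7354 genes in all. At day 2 against day 0, Ptgs1 was again the 1 called gene of 6 (2.41-fold, 1.53 to 3.95), against 5.75% of all genes, and at day 2 against day 1 none of 6 was, against 0.164%. At day 5 against day 0, Ptgs2 was the 1 called gene of 6, against 9.77%. Ptgs1 and Ptgs2 met the CPM minimum only through the days on which they were higher, so these counts add nothing to the values themselves.

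At day 5 against day 2, Ptgs2 was called higher, and Alox5 (0.477 of the day 2 level, 0.445 to 0.511) and Ptgs1 (2.02-fold lower, 1.54 to 2.65) were called lower, 3 of 7 genes against 5.18% of all (4.11% higher and 1.07% lower). Hpgds, at 1.89-fold lower (1.76 to 2.03), and Ltc4s, at 1.86-fold lower (1.80 to 1.93), stood just short of the 2-fold limit. Ptgs2 and Ptgs1 met the CPM minimum only through the day on which they were high, so 2 of the 3 calls follow from that filter and the count is no support. The median log2 ratio of the 7 genes was -0.90 against -0.04 for all 7469 genes, under the same filter. Alox5 and Ptgs1 lay near the limit, and with the mean of each barcode's CPM in place of summed UMIs they were 1.93-fold and 1.95-fold lower and no longer called. At day 1 the call of Ptgs1 over day 0 was likewise lost with a mitochondrial limit of 5%, at 1.93-fold. Against day 0, Alox5 was 1.96-fold lower at day 5 (1.79 to 2.15), and 2.12-fold lower once each library was scaled by the median ratio over all genes, a scaling that moved all genes by 0.11 on the log2 scale.

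The share of barcodes with at least 1 UMI was compared after each barcode was thinned to 500 UMIs, which makes the depth of all barcodes equal. Alox5 was found in 8.29%, 7.86%, 7.68% and 4.36% of thinned barcodes at days 0, 1, 2 and 5. Ltc4s was found in 22.8%, 26.2%, 26.9% and 14.8%, and Alox5ap in 40.2%, 41.7%, 41.3% and 42.8%. Ptgs2 was found in 0.0646% to 0.184% of thinned barcodes before day 5 and in 1.67% (1.26 to 2.17%) at day 5. Without thinning, its day 5 share was 8.75% (7.80 to 9.77%), or 283 barcodes, of which 69 held 3 or more UMIs and the highest held 10. Free RNA in the droplets gives some barcodes a UMI of a gene that the cell does not express, and no group of barcodes known to lack these transcripts was at hand to measure that share.

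The question of which cells carry these transcripts was addressed by splitting the barcodes of each library by 6 genes, with a barcode positive when it held at least 1 UMI. Sparc is known from the macrophages that line the synovial surface, Cd163 is a scavenger receptor of tissue macrophages, H2-Aa encodes a chain of MHC class II, and Plac8 is known from recently recruited monocytes. Spp1 encodes osteopontin, and Acp5 the tartrate-resistant acid phosphatase of osteoclasts. At days 0, 1, 2 and 5, Sparc was found in 1914, 1715, 1267 and 915 barcodes, Plac8 in 32, 59, 52 and 826, H2-Aa in 2254, 1690, 1021 and 1557, and Cd163 in 847, 2125, 1166 and 789. Spp1 was found in 354, 422, 385 and 1098 barcodes and Acp5 in 404, 454, 276 and 493. The groups share barcodes: at day 5, 53.8% of Plac8-positive barcodes were H2-Aa positive and 8.60% were Sparc positive. A positive group can take in deeper barcodes, and a barcode can lack a UMI of a marker its cell expresses, so the groups are not cell types and barcodes are not replicates.

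At day 5 the Sparc split separated genes of higher level in Sparc-positive barcodes from genes of lower level. Ltc4s stood at 869 CPM in Sparc-positive and 172 in Sparc-negative barcodes (5.06-fold, 4.79 to 5.36), and Hpgds at 171 and 45.1 (3.79-fold, 3.37 to 4.26). Alox5 stood at 152 and 62.3 (2.44-fold, 2.19 to 2.72), and Ptgs1 at 10.8 and 4.02 (2.68-fold, 1.74 to 4.16). Ptgs2 had the opposite order, 10.8 and 45.9 CPM (4.26-fold lower, 3.16 to 5.86), and Lta4h stood at 29.2 and 42.3. Alox5ap, at 1146 and 1086 CPM, was 1.06-fold apart (1.02 to 1.09). Called genes were 4 higher and 1 lower of 7, against 6.72% higher and 5.19% lower over all genes, with a median log2 ratio of 1.29 against 0.01. Ptgs1 is among the 4 only because its Sparc-positive level met the CPM minimum, so the count and the median are descriptions only.

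Fibroblast markers moved with this split. All 9 together, 8 of them listed, had 279 CPM in Sparc-positive barcodes against 102 in the whole day 5 library, led by Dcn, and Sparc is also a gene of fibroblasts. A filter on other cell types left out barcodes with 2 or more UMIs summed over neutrophil, mast cell, basophil, eosinophil, megakaryocyte and platelet markers. It took 5.44% of day 5 barcodes and did not use fibroblast markers, so fibroblast RNA was not addressed by it. Without those barcodes, the ratios were 4.80 for Ltc4s, 3.51 for Hpgds, 2.37 for Alox5, 2.89 for Ptgs1 and 0.197 for Ptgs2. Taking barcodes with Sparc as their lone marker against barcodes with no marker moved the ratios further. In the 229 day 5 barcodes with no UMI of any of the 6 markers, Alox5 stood at 167 CPM, Hpgds at 119 and Ltc4s at 506. Barcodes positive for Sparc alone exceeded them by 1.14-fold, 1.62-fold and 1.89-fold. Ptgs2 was 8.04-fold lower with Sparc alone, but from 1 UMI in 262 barcodes, so that ratio is not a firm value. Compared with the barcodes of no marker, Alox5 was lower where Plac8 (9.27 CPM), H2-Aa (68.9) or Spp1 (58.7) was the lone marker, and not where Cd163 was (185).

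The same split gave smaller ratios on the earlier days. Over all genes, the shares at least 2-fold apart in this split were lower on those days as well. They were 1.31%, 5.18% and 4.83% at days 0, 1 and 2, against 11.9% at day 5. Day 0 also had the lowest depth, with a median of 1057 UMIs per barcode. Ltc4s was 1.33-fold higher in Sparc-positive barcodes at day 0 (633 against 476 CPM), 1.97-fold at day 1 (982 against 499) and 2.06-fold at day 2 (933 against 454). Hpgds was 1.38-fold, 1.72-fold and 1.56-fold higher on those days. Alox5 was 1.22-fold higher at day 0, 1.02-fold at day 1 (0.953 to 1.09) and 1.13-fold lower at day 2 (1.04 to 1.23). For Alox5 the direction therefore differed between days 2 and 5, and for Ltc4s and Hpgds it was the same on all 4 days. Whether the ratios differ between days beyond the spread of libraries was not tested, with 1 library per day.

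Plac8-positive barcodes had the reverse profile of the Sparc-positive ones. At day 5 Ltc4s stood at 87.1 CPM in Plac8-positive against 479 in Plac8-negative barcodes (5.50-fold lower, 4.92 to 6.16), Alox5 at 21.5 against 112 (5.22-fold lower, 4.17 to 6.62) and Hpgds at 22.0 against 103 (4.69-fold lower, 3.75 to 5.94). Ptgs2 stood at 83.4 against 19.1 CPM (4.36-fold higher, 3.65 to 5.21). In this split Alox5ap, the partner of 5-lipoxygenase, went with Ptgs2 and not with Alox5, at 1519 against 963 CPM (1.58-fold higher, 1.53 to 1.63). Lta4h stood at 49.8 against 34.5 (1.44-fold higher, 1.21 to 1.72). Called genes were 1 higher and 3 lower of 6, against 4.51% higher and 11.3% lower of all genes, and the median log2 ratio was -0.85 against -0.18. The smaller Plac8-positive groups of days 1 and 2 had the same order for Alox5, Ltc4s, Hpgds and Alox5ap. There Ltc4s was 3.04-fold and 2.85-fold lower (237 against 720.2 CPM and 251 against 717), and Alox5 2.65-fold and 2.92-fold lower. Alox5ap was 1.17-fold (1.05 to 1.31) and 1.26-fold (1.13 to 1.41) higher.

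Neutrophil markers moved with this split too, at 115 CPM summed in Plac8-positive against 25.6 in Plac8-negative barcodes of day 5, with 5 of 10 markers listed, Mmp8 at 55.6 CPM leading and Ly6g, Camp, Ltf, Ngp and Retnlg not listed. Without barcodes of other cell types the day 5 ratios were 0.184 for Alox5, 0.191 for Ltc4s, 0.210 for Hpgds, 1.52 for Alox5ap and 4.60 for Ptgs2, close to those with them.

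**Figure D2:**
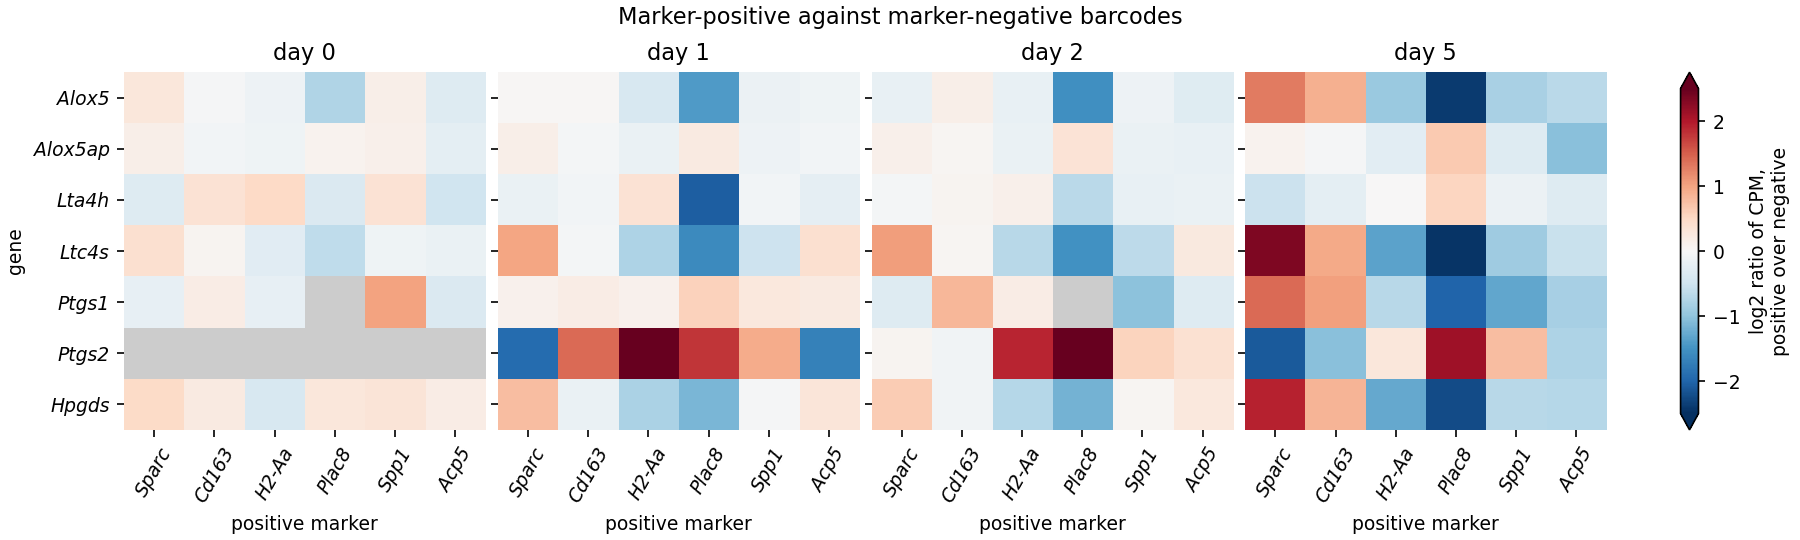
Log2 ratio of the summed CPM of marker-positive over marker-negative barcodes (colour, red higher and blue lower, with values beyond the scale in the end colour) for 7 genes (rows) and 6 markers (columns) on each day. Grey marks fewer than 20 UMIs in all or a group at 0, and the day 0 Plac8 column rests on 32 barcodes. At day 5 Alox5, Ltc4s and Hpgds are red for Sparc and blue for Plac8, and Ptgs2 has the opposite colours.

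A comparison of the 844 barcodes with Sparc and no Plac8 against the 755 with Plac8 and no Sparc at day 5, chosen after the values above had been seen, set the 2 profiles side by side. Ltc4s stood at 905 against 36.5 CPM (24.8-fold, 20.7 to 29.9), Hpgds at 178 against 13.1 (13.6-fold, 10.1 to 19.0) and Alox5 at 159 against 14.2 (11.2-fold, 8.33 to 15.3). Ptgs1, from 45 and 4 UMIs, stood at 11.1 against 1.19 CPM. Ptgs2 stood at 4.20 against 84.3 CPM (20.1-fold lower, 12.3 to 34.9), Lta4h at 27.0 against 49.6 (1.84-fold lower, 1.44 to 2.36) and Alox5ap at 1132 against 1547 (1.37-fold lower, 1.31 to 1.42). Of all genes, 17.4% were called higher and 7.80% lower here, so a 2-fold difference was common between these groups. Their median depths were 4411.5 and 3843 UMIs per barcode. After thinning to 500 UMIs, Ltc4s was found in 34.8% (31.6 to 38.2%) of the Sparc group and 1.72% (0.920 to 2.93%) of the Plac8 group, and Ptgs2 in 0.355% (0.0734 to 1.04%) and 3.84% (2.59 to 5.47%). Requiring 3 or more UMIs of the marker gave 38.1-fold for Ltc4s, 18.1-fold for Alox5 and 18.5-fold lower for Ptgs2. At day 2, with 1257 and 42 barcodes, Ltc4s was 16.0-fold apart (8.41 to 34.9), Hpgds 7.21-fold (2.81 to 26.5) and Alox5 3.40-fold (1.72 to 7.89).

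**Figure D3:**
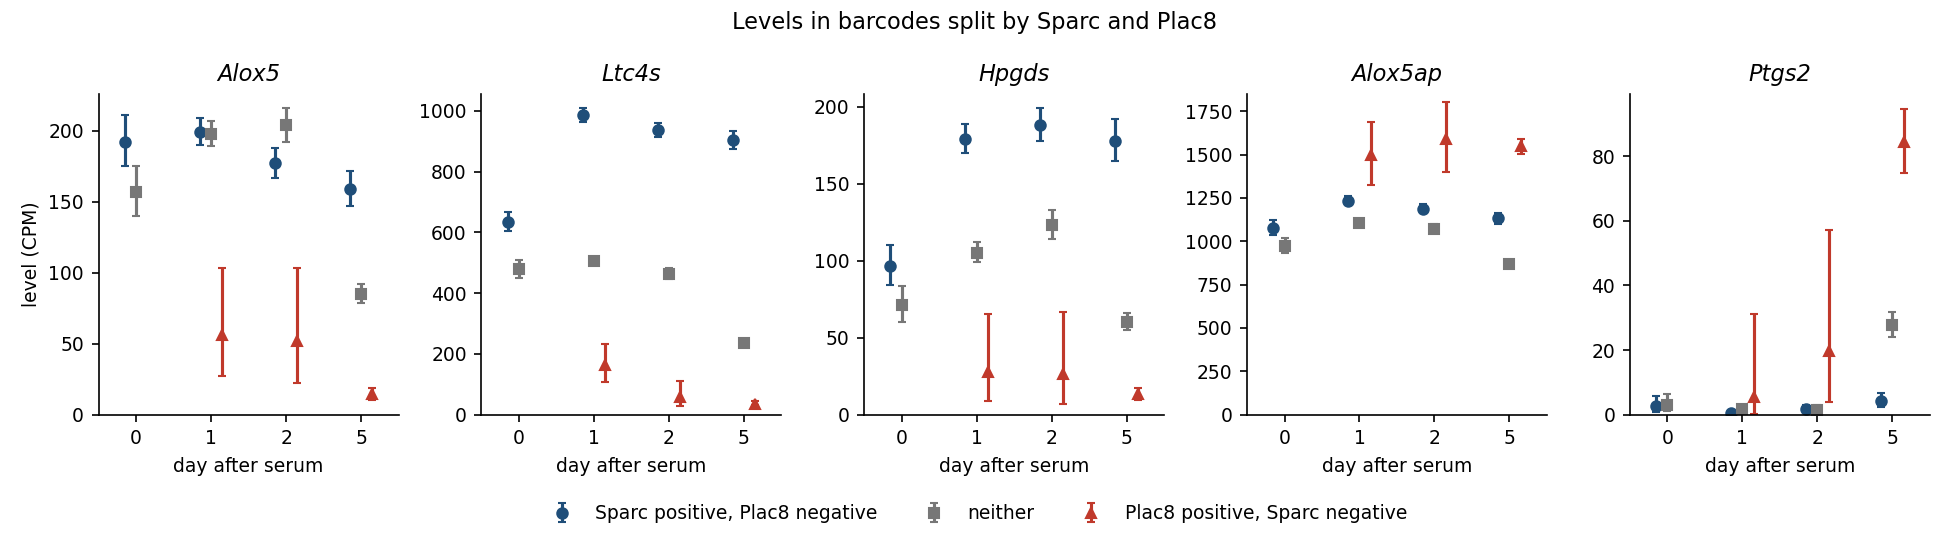
Level in CPM (vertical axis, from 0) of 5 genes by day (horizontal axis) in barcodes with Sparc and no Plac8 (circles), Plac8 and no Sparc (triangles) or neither (squares), with exact Poisson 95% intervals as bars. Points are drawn for groups of at least 20 barcodes, so the Plac8 group, of 12 barcodes, has none at day 0. Ltc4s and Hpgds stay near their day 2 level in the Sparc group at day 5 and are lower in the other barcodes.

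The lower day 5 levels of Alox5, Ltc4s and Hpgds in the whole library were next read within these groups. In barcodes with Sparc, the day 5 level was 0.863 of the day 2 level for Alox5 (0.784 to 0.95), 0.931 for Ltc4s (0.894 to 0.969) and 0.910 for Hpgds (0.830 to 0.997). In barcodes without Sparc it was 0.312 (0.283 to 0.344), 0.378 (0.356 to 0.402) and 0.374 (0.332 to 0.421). Of all genes, 0.149% were at least 2-fold lower at day 5 among Sparc-positive barcodes and 4.48% among Sparc-negative ones. Barcodes with neither Sparc nor Plac8 also stood below the day 2 level, at 0.418, 0.508 and 0.490 of it. In the barcodes with none of the 6 markers the values were 0.745 for Alox5 (0.600 to 0.923), 0.960 for Ltc4s (0.844 to 1.09) and 0.770 for Hpgds (0.594 to 0.994). A change in the mixture of cells and a change of RNA per cell cannot be told apart from summed levels.

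Ptgs2 was higher at day 5 than at day 2 in each marker-positive group, and these groups share barcodes. It was 5.34-fold higher among Sparc-positive (2.85 to 10.8), 10.2-fold among Cd163-positive, 10.9-fold among H2-Aa-positive, 17.8-fold among Spp1-positive and 9.27-fold among Acp5-positive barcodes. Among Plac8-positive barcodes it was 3.85-fold higher (1.63 to 11.9), from 5 UMIs at day 2. Sparc-positive barcodes held 48 Ptgs2 UMIs at day 5, of which 17 lay in the 844 barcodes without Plac8. There Ptgs2 stood at 4.20 CPM, against 1.73 at day 2 from 11 UMIs. With Sparc as the lone marker, 1 UMI was found on each of these days. In all Plac8-negative barcodes Ptgs2 stood at 19.1 CPM at day 5, from 213 UMIs, against 1.59 at day 2, from 19 UMIs. A barcode can lack a Plac8 UMI though its cell expresses the gene. Whether Ptgs2 was higher in cells without Plac8 was therefore not tested. The day 5 levels were 83.4 CPM in Plac8-positive, 47.4 in Spp1-positive, 38.6 in H2-Aa-positive, 23.0 in Acp5-positive, 19.5 in Cd163-positive and 10.8 in Sparc-positive barcodes, in that order. Of neighbours in this order, Spp1 overlapped H2-Aa and Acp5 overlapped Cd163 in their intervals, and the other neighbours were apart.

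**Figure D4:**
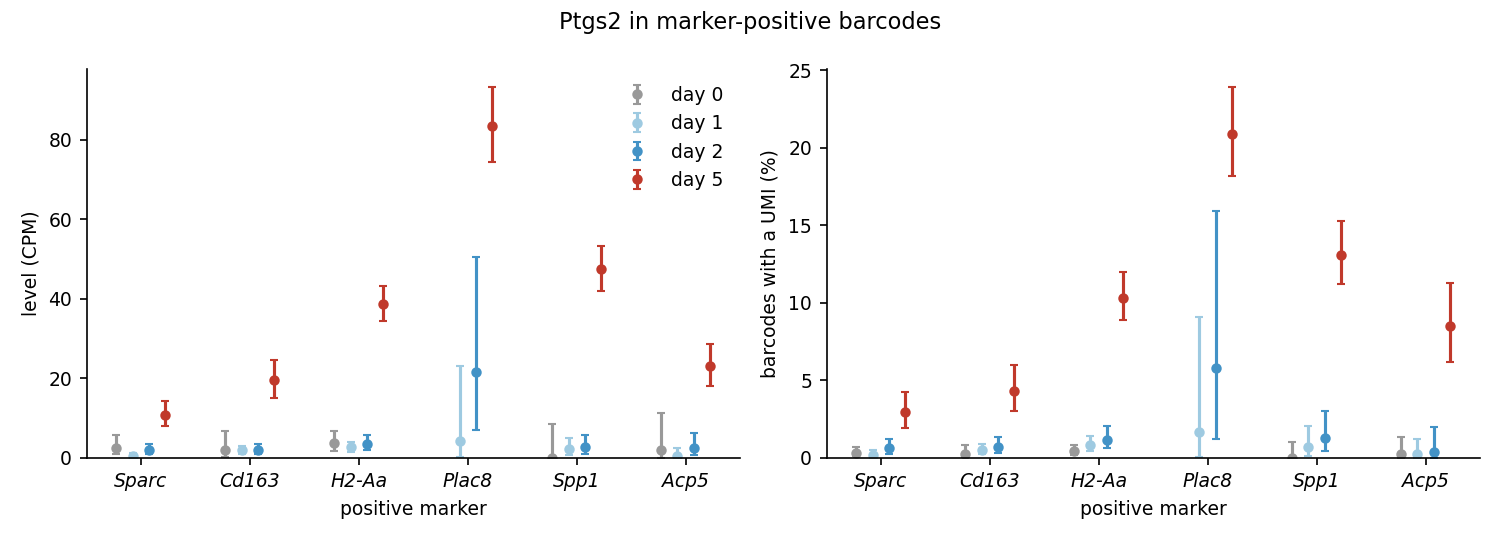
Ptgs2 in the barcodes positive for each marker (horizontal axis) on each day (colours): the level in CPM on the left and the unthinned share of barcodes with a UMI in percent on the right, both from 0, with 95% intervals as bars. The day 0 Plac8 group, of 32 barcodes, is not drawn. Day 5 stands highest for each marker, and Plac8-positive barcodes of day 5 stand at 83.4 CPM and 20.9%.

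Seen from the gene's side, 61.1% (55.2 to 66.8%) of the 283 day 5 barcodes with a Ptgs2 UMI were Plac8 positive, against 25.5% of all day 5 barcodes, and 50.9% (44.9 to 56.8%) were Spp1 positive against 33.9%. Sparc-positive barcodes were 9.54% (6.38 to 13.6%) of them against 28.3%. In the barcodes with Ptgs2, Alox5 stood at 22.1 CPM against 96.1 in the rest (4.36-fold lower), Ltc4s at 102 against 409 (3.99-fold lower) and Hpgds at 23.5 against 88.8 (3.78-fold lower). Alox5ap stood at 1433 against 1069.9 CPM, 1.34-fold higher. The 2 cyclooxygenase transcripts were not found together at day 5: 0 of these 283 barcodes held a UMI of Ptgs1, against 2.54% of the other barcodes. With 3 barcodes set in place of 0, that share would be 1.06%. Of the few Ptgs2 barcodes of earlier days, 0 of 12 held Ptgs1 at day 0, 4 of 17 at day 1 (23.5% against 4.04% of the others) and 1 of 17 at day 2 (5.88% against 4.95%). With the day 5 count of 0 set to 3 UMIs, Ptgs1 was at least 3.12-fold lower in CPM than in the other barcodes. The barcodes with Ltc4s went with the other genes of the Sparc profile, with Alox5 at 149 against 39.3 CPM (3.78-fold higher, 3.33 to 4.30) and Hpgds at 148 against 28.1 (5.26-fold higher, 4.55 to 6.10). Neutrophil markers summed to 67.6 CPM in barcodes with Ptgs2 and 46.4 in those without, and fibroblast markers to 7.11 and 112 CPM.

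For Alox5, Ltc4s, Hpgds and Ptgs2, the other 4 markers gave smaller ratios than Plac8 at day 5. H2-Aa-positive barcodes had less Ltc4s (221 against 560.0 CPM, 2.53-fold lower, 2.39 to 2.68), Hpgds (49.4 against 120.3, 2.43-fold lower) and Alox5 (62.5 against 119, 1.91-fold lower), with 2 of 6 genes called lower against 2.43% of all genes. Their Ptgs2 was 38.6 against 31.8 CPM (1.21-fold higher, 1.02 to 1.45). Their Alox5ap was lower, as Alox5 was, at 1006 against 1216 CPM (1.21-fold lower, 1.17 to 1.25). Ltc4s and Hpgds were lower in H2-Aa-positive barcodes on the other days as well, by 1.22-fold to 1.71-fold and 1.33-fold to 1.73-fold. Cd163-positive barcodes leaned the other way, with Ltc4s at 598 against 312 CPM (1.92-fold), Alox5 at 137 against 74.1 (1.85-fold) and Hpgds at 124 against 69.6 (1.79-fold), and 1 of 6 genes, Ptgs2, was called, lower by 2.08-fold against 2.91% of all genes. At days 1 and 2 the Cd163 split left Alox5, Ltc4s and Hpgds within 1.12-fold of each other.

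Spp1-positive barcodes had Ltc4s at 251 against 465 CPM (1.85-fold lower), Alox5 at 61.4 against 107 (1.75-fold lower) and Ptgs2 at 47.4 against 27.6 (1.72-fold higher), and none of 6 genes was called against 3.27% of all. With 3 or more Spp1 UMIs the ratios were wider, with Ltc4s 3.71-fold lower, Alox5 2.65-fold lower, Hpgds 2.59-fold lower and Ptgs2 2.43-fold higher. Over all Spp1-positive barcodes Alox5ap was lower too, at 962 against 1197 CPM (1.24-fold lower, 1.21 to 1.29). Acp5-positive barcodes stood apart in Alox5ap, which was at 608 against 1253 CPM (2.06-fold lower, 1.97 to 2.16), the 1 called gene of 6 against 3.42% of all genes. It was 1.99-fold lower without barcodes of other cell types. In the 124 barcodes with 3 or more Acp5 UMIs, whose median depth was 11325 UMIs, Alox5ap stood at 148 CPM (8.48-fold lower), Alox5 at 17.5 (5.58-fold lower), Hpgds at 11.8 (7.67-fold lower) and Ltc4s at 77.3 (5.31-fold lower). At days 0, 1 and 2 the Acp5 split moved Alox5ap by 1.18-fold, 1.04-fold and 1.13-fold. Ptges stayed at 2.03 CPM or lower in each marker-positive group of day 5, from 12 UMIs or fewer, and gave no comparison.

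Other genes of the pathway were taken from 4 fixed lists. The first list, of 14 genes, covered the release and re-esterification of arachidonic acid and also held Pla2g7, whose enzyme inactivates platelet-activating factor. At day 5 against day 0, 9 of the 14 could be measured and none was called, against the 9.77% of all genes given above. The phospholipase gene Pla2g4a stood at 25.1, 28.3, 25.6 and 24.3 CPM on the 4 days. Of 14 further leukotriene and lipoxygenase genes, 1 of 7 measured was called, Cyp4f18 (3.49-fold higher, 2.87 to 4.27), which encodes a leukotriene B4 hydroxylase in mice and stood at 25.5, 47.9, 48.7 and 89.1 CPM. Of 10 further prostanoid genes none of 6 was called, and of 15 receptors 1 of 3 was. That receptor was Ltb4r1, the high-affinity receptor of leukotriene B4, at 15.9, 31.8, 20 and 87.4 CPM on the 4 days, 5.51-fold higher at day 5 than at day 0 (4.32 to 7.12) and 4.38-fold higher than at day 2 (3.81 to 5.04). Ltb4r1 was also called at day 1 against day 0 (2.00-fold, 1.56 to 2.61; 4.98% of all genes), and was 1.26-fold its day 0 level at day 2 (0.960 to 1.67). Ptges2, at 16.8, 8.93, 4.85 and 13.7 CPM, was called lower at day 2 against day 0 (3.46-fold, with 5.75% of all genes called). It was called higher at day 5 against day 2 (2.82-fold, with 4.11% called higher). Pla2g12a was called lower at day 2 against day 0 (2.11-fold, 5.35 against 11.3 CPM). Both genes met the CPM minimum only through the days on which they were higher, so these calls add nothing to the values themselves. Against day 2, none of the measured genes of the release and leukotriene lists was called at day 5, and at day 2 against day 1 none of any list was.

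At day 5 these genes fell on both sides of the Sparc and Plac8 splits. Ltb4r1 stood at 219.6 CPM in Plac8-positive against 42.6 in Plac8-negative barcodes (5.15-fold, 4.60 to 5.78), Cyp4f18 at 194 against 53.3 (3.65-fold) and Pla2g7, a phospholipase that inactivates platelet-activating factor, at 313 against 96.0 (3.26-fold). With Sparc, Ltb4r1 was lower, at 22.2 against 115 CPM. Hpgd, which encodes the dehydrogenase that inactivates prostaglandins, went with Sparc instead, at 389 against 112 CPM (3.46-fold), as did Tbxas1, the thromboxane synthase gene, at 194 against 49.3 (3.94-fold), and Lpcat2, at 199.5 against 84.5 (2.36-fold). Over the days Hpgd stood at 211, 344, 353 and 195 CPM and Tbxas1 at 83.0, 142, 165 and 92.5, both higher at days 1 and 2 than at days 0 and 5, as Hpgds was. Of the lists as wholes, the Plac8 split called 1 higher and 3 lower of 8 leukotriene genes, none higher and 3 lower of 7 prostanoid genes, 1 and 1 of 8 release genes and 1 higher and none lower of 3 receptors, against the 4.51% and 11.3% of all genes given above. The Sparc split called 2 higher of 6 prostanoid genes, 2 higher and 1 lower of 8 release genes, 2 lower of 8 leukotriene genes and 1 lower of 3 receptors, against 6.72% higher and 5.19% lower of all genes.

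Before day 5, Ltb4r1 went with H2-Aa. It stood at 23.6 against 3.06 CPM at day 0, 76.4 against 2.79 at day 1 and 45.8 against 3.25 at day 2, and was 1.37-fold higher in H2-Aa-positive barcodes at day 5. Alox15, the 12/15-lipoxygenase gene, was listed at day 5 alone, at 17.3 CPM, with 32.2 CPM in H2-Aa-positive and 0.430 in H2-Aa-negative barcodes. A gene is listed only when at least 5 barcodes of the library hold it, so a missing entry is not a level of 0.

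**Figure D5:**
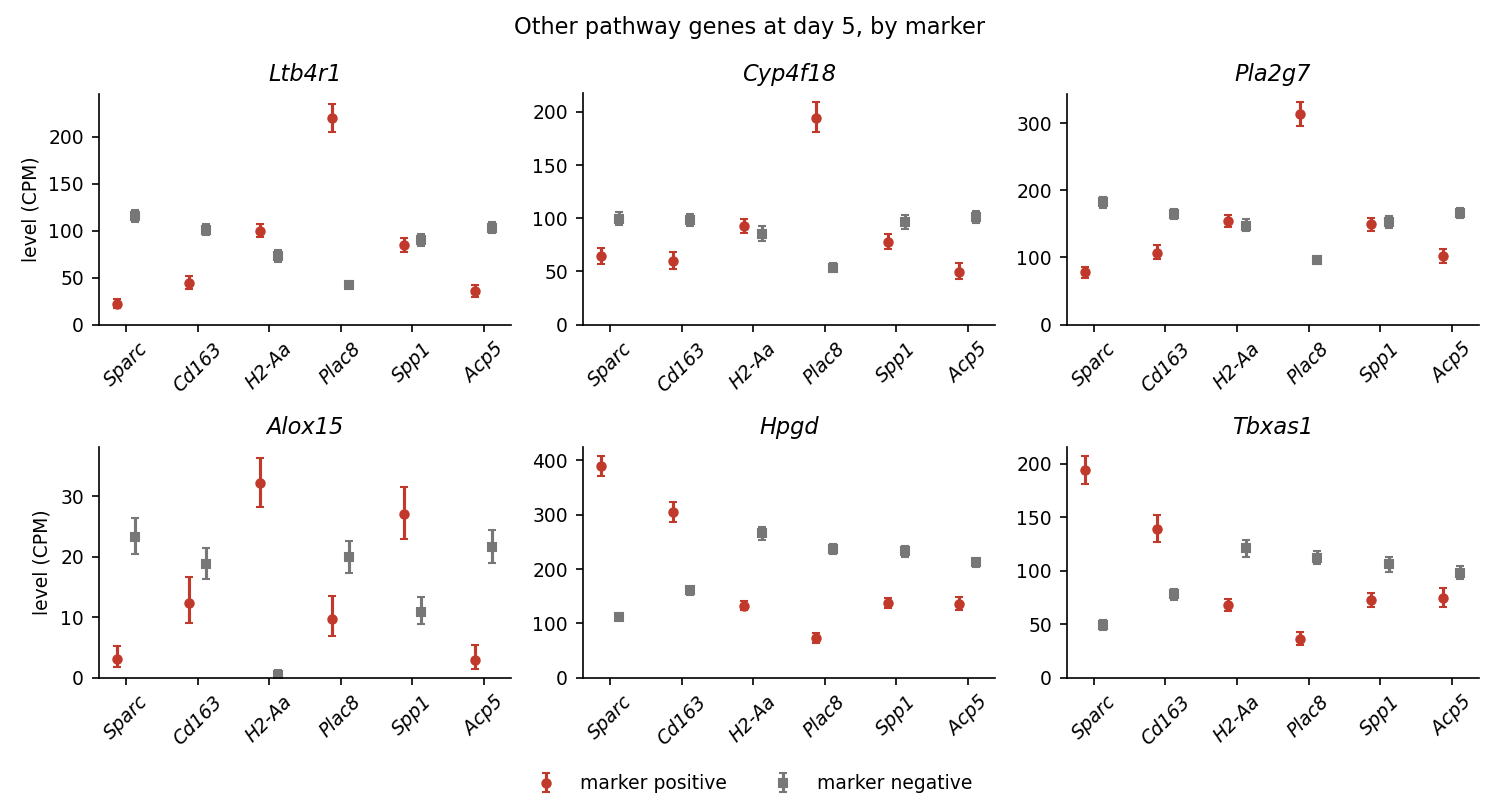
Level in CPM (vertical axis, from 0) at day 5 of 6 other pathway genes in barcodes positive (circles) and negative (squares) for each marker (horizontal axis), with exact Poisson 95% intervals as bars. Ltb4r1, Cyp4f18 and Pla2g7 are highest in Plac8-positive barcodes, Alox15 in H2-Aa-positive ones, and Hpgd and Tbxas1 in Sparc-positive ones.

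The genes most like each member were found by Pearson's r of log2(CPM + 10) over 24 points, the 6 marker-positive groups of 4 libraries, which share libraries and barcodes, among 5535 genes with at least 20 CPM. For Alox5 they were Cd81 (r = 0.963), C1qc (0.959) and Rtl8a (0.95), and for Ltc4s Timd4 (0.984), C1qa (0.979) and Timp2 (0.978). For Hpgds they were Rgs10 (0.975), Camk1 (0.973) and Folr2 (0.971). C1qa and C1qc encode chains of complement C1q, Timd4 a receptor of resident macrophages for phosphatidylserine, and Folr2 a folate receptor of tissue macrophages. The pattern of Ptgs2 was most like those of Dmkn (0.982), Il1r2 (0.969), the decoy receptor of interleukin-1, and Lmnb1 (0.938). Ptgs2 had 12, 23 and 24 UMIs in the libraries of days 0, 1 and 2, against 528 at day 5. Its r values therefore rest mostly on the marker groups of the day 5 library. For Alox5ap they were Cdc42se1 (0.912), Vsir (0.815) and Fcer1g (0.813), and for Lta4h Smarcad1 (0.804), Ireb2 (0.777) and Med21 (0.773). The Plac8 point of day 1, of 59 barcodes, was low for Lta4h (8.32 CPM from 2 UMIs), Smarcad1 (4.16 CPM) and Ireb2 (0 CPM). How far the r values of Lta4h rest on this sparse point was not tested. Among the members, r was 0.936 for Ltc4s with Hpgds, 0.924 for Ltc4s with Alox5 and 0.860 for Alox5 with Hpgds, against -0.874 for Alox5 with Ptgs2. Alox5ap had an r of -0.107 with Alox5 and 0.041 with Ptgs2. Ptgs1 and Ptges stayed below 20 CPM and were left out.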

How the data were processed

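Per the labels' protocols, 17400 cells per sample were loaded for the Chromium Single Cell 3' kit, version 2. The authors deposited raw UMI counts per gene and barcode. The build mm10 and the tools Cell Ranger 2.1.0, R 3.5.2 and Seurat 2.3 are listed per the submitters' processing notes, without their roles. In each deposited file a gene is listed when 5 or more of its barcodes hold it.

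A barcode was kept with 500 or more genes and less than 10% of UMIs from mitochondrial genes. Doublets were not called and remain, and cells were not clustered. UMIs were summed per group and divided by the group's total (CPM). Levels carry exact Poisson, ratios exact conditional binomial and shares Clopper-Pearson intervals, all at 95%. Where a group had no UMI of a gene, 3 counts stood in for it and the ratio is a bound. UMIs count molecules, and intervals leave out the spread between mice and libraries. Ratios were tested on counts simulated with Poisson error alone, which cannot show how they behave under spread between barcodes, mice or libraries. Python 3.11.15, NumPy 2.4.6, SciPy 1.17.1 and matplotlib 3.10.9 were used.

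The members, the marker genes and the lists were chosen with earlier results of these data known. Named were all 8 members, up to 3 genes per pathway list and direction at least 2-fold apart with at least 10 CPM between days, and the 3 genes most like each member. Values of Pla2g4a, Pla2g7, Hpgd, Tbxas1, Lpcat2 and Alox15 were chosen after they had been seen, as was the comparison of Sparc with Plac8 barcodes. Alternatives were other gene and mitochondrial limits, thinning to 1000 UMIs or none, median-ratio scaling, the mean of barcode CPM, no CPM minimum, 3 or more marker UMIs, 1 marker alone, at least 1500 UMIs, and leaving out barcodes of other cell types. The last left out barcodes with 2 or more UMIs summed over neutrophil, mast cell, basophil, eosinophil, megakaryocyte and platelet markers.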

Additional observations from a re-analysis of the deposited data

Results flagged for a closer look

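Some marker splits gave ratios of opposite direction on different days, with intervals on both sides of 1. The difference between days was not tested, since each day is 1 library. Ptgs2 was 2.66-fold (1.04 to 7.64) in Cd163-positive against Cd163-negative barcodes at day 1, from 16 and 7 UMIs, and 0.481-fold (0.368 to 0.621) at day 5. Lta4h was 0.237-fold (0.0287 to 0.861) in Plac8-positive barcodes at day 1, from 2 UMIs in 59 barcodes, and 1.44-fold (1.21 to 1.72) at day 5. In Acp5-positive barcodes Ltc4s was 1.33-fold (1.27 to 1.39) at day 1 and 0.677-fold (0.631 to 0.726) at day 5. Hpgds was 1.24-fold (1.11 to 1.38) there at day 1, 1.21-fold (1.06 to 1.37) at day 2 and 0.609-fold (0.519 to 0.712) at day 5.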

How the results depend on the processing

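Counts of members at least 2-fold apart were small and several moved by more than 1.5 times. At day 1 against day 0 the count of 1 became 0 with a 5% mitochondrial limit and 3 with no CPM minimum. At day 5 against day 0 the count of 1 became 2 with a minimum of 200 genes, with 1000 genes and with median-ratio scaling. At day 5 against day 2 the count of 3 became 1 with the mean of barcode CPM. For the day 5 splits, the Sparc count of 5 became 1 with this marker alone against none of the 6, and the H2-Aa count of 2 became 4. The Cd163 count of 1 became 0 with 1000 genes, 2 with the mean of barcode CPM, with no CPM minimum and without barcodes of other cell types, and 3 with 3 or more UMIs. The Spp1 count of 0 became 1 with the mean of barcode CPM, 2 with no CPM minimum, and 4 with 3 or more UMIs or this marker alone. The Acp5 count of 1 became 0 with the mean of barcode CPM and without barcodes of other cell types, 5 with 3 or more UMIs and 4 with this marker alone. Of 32 shares per member and day, 13 were at least 5% after thinning and 20 without it. In all, 69 of these 91 alternative counts and shares were within 1.5 times of the value reported. Of 1791 alternatives for single genes, 222 moved beyond the counting interval and 1 reversed: Ptgs1 in Spp1-positive barcodes of day 2, 2.02-fold lower in the report's fit and 2.27-fold higher for Spp1 alone. The cause was not tested. Alternatives that left a group with fewer than 10 barcodes were not run. No paired analysis was possible because each day has 1 library. Median-ratio scaling moved all genes by 0.15, 0.14 and 0.11 on the log2 scale for days 1, 2 and 5 against day 0. Ptges and the early Ptgs2 levels are limited by depth.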

Other observations

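The TdTomato transcript, read from the reporter row of the files, split the barcodes much as Sparc did. At day 5, Ltc4s stood at 617 CPM in TdTomato-positive against 183 in TdTomato-negative barcodes (3.38-fold, 3.18 to 3.59), Hpgds at 134 against 39.8 (3.36-fold, 2.96 to 3.83) and Alox5 at 119 against 64.2 (1.86-fold, 1.66 to 2.08). Ptgs2 stood at 18.2 against 49.8 CPM (2.74-fold lower, 2.23 to 3.38), and Alox5ap at 1072 against 1130.4. Called genes were 2 higher and 1 lower of 6, against 5.70% of all genes. At day 0 the same split gave 572 against 543 CPM for Ltc4s and 177 against 173 for Alox5, and at day 2 794 against 543 for Ltc4s and 183 against 196 for Alox5. Of the day 5 barcodes with Ptgs2, 24.7% (19.8 to 30.2%) were TdTomato positive, against 40.9% of all. A TdTomato UMI depends on depth, with median depths of 4338 UMIs in positive and 3649 in negative barcodes, and a barcode without one may still come from a labelled cell.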
